A study of Mus musculus with 6 samples.

Results

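The genes described are 10 that encode serum and carrier proteins, or proteins found with them, in the extraembryonic endoderm: Afp, Alb, Ttr, Trf, Rbp4, Spp2, Fga, Fgb, Fgg and S100g. They were taken by gene symbol from the annotation of the 34967 transcript probes, and each was represented by 1 probe, so that 10 probes of 34967 were followed, for 10 of the 18563 genes named on the array. The set was chosen by measured values of these arrays, among them how bright such genes were on 1 Splotch null array. The level of each gene on each array is therefore given as a description, with no test. Of the 10 genes, 9 were above background on at least 1 array, 7 were above background on all 6 arrays and Alb was above it on none.

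The visceral endoderm of the yolk sac surrounds the midgestation mouse embryo, takes up maternal protein and secretes serum proteins before the liver does so. Its products include alpha-fetoprotein, transferrin, transthyretin, retinol-binding protein and apolipoproteins, many of which the fetal liver later makes as well. Several of these genes are also transcribed in the gut endoderm of the embryo, which is continuous with the yolk sac endoderm at this age.

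The tissue was the hind part of embryonic day 9.5 mouse embryos, severed just caudal to the forelimb, at a mean of 21.3 somite pairs. All samples carried the strain label LMBc. The 6 samples were 3 wild type (WT) and 3 Splotch null, with 1 one-colour CodeLink array each. The labels gave no replicate numbers, and the arrays are numbered here within each genotype in sample order. Splotch is a mutation of Pax3, a transcription factor of the dorsal neural tube and somites, and the labels gave neither the allele nor whether a sample held 1 embryo or several. The labels did not say either whether the extraembryonic membranes were removed before the cut. Nothing in the labels says that the samples came from separate litters, so the spread between them may be partly technical.

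Values are log2 intensities after quantile normalization, with 50 added to the background-subtracted intensity before log2, which makes folds of dim genes smaller than they were. The median raw intensity ran from 84.3 to 121.1 over the arrays, and 66.1% to 71.7% of the probes were above background. Pax3 lay between 10.02 and 10.83 on the 6 arrays, which does not check the mutation. A label field named the anterior neural tube, but Hoxd11 (11.05 to 12.14) and Cdx2 (11.03 to 11.44), both expressed caudally, were above background on all 6 arrays. Splotch null 2 stood apart from the rest on the genes described here. On that array 81 of 25749 probes were at least 2-fold above every other array, against 1 to 6 probes on each of the other 5. The array was not unusual in its general readings, with a median raw intensity of 86.7 and 66.6% of the probes above background. Each genotype difference below is therefore given with and without it. In bulk tissue, fewer cells of a type and less RNA per cell cannot be told apart.

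Afp encodes alpha-fetoprotein, the main serum protein of the fetus and the classical product of yolk sac endoderm. Log2 intensity of Afp was 9.52 on wild type 1, 9.24 on wild type 2, 9.32 on wild type 3, 8.99 on Splotch null 1, 13.19 on Splotch null 2 and 8.32 on Splotch null 3. Thus Splotch null 2 was 12.8-fold above the brightest other array, and the other 5 arrays lay within 2.29-fold of each other. In raw intensity, as deposited, the Afp spot read 9459 on Splotch null 2 and between 332 and 793 elsewhere.

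Alb encodes albumin, which replaces alpha-fetoprotein as the main serum protein once the liver has matured, and its gene is the direct neighbour of Afp on chromosome 5, with 0 annotated genes between them. Alb did not rise above background on any of the 6 arrays. Its raw intensity lay between -1.0 and 21.3 on 5 arrays, and the 11.6 of Splotch null 2 was within that range. The pair Afp and Alb was therefore separated on Splotch null 2, where the one spot was among the bright ones and the other read as background. Whether the Alb probe would detect its transcript in a liver sample was not tested.

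The bases before the start of both genes are shown because these neighbours are known to share enhancers yet were measured so differently on Splotch null 2. Capitals mark the letters GTTAAT, or their reverse complement ATTAAC, the half-site of HNF1, a homeodomain factor of liver, gut and yolk sac endoderm. Each stretch holds the 250 bases before the start of the RefSeq gene in build GRCm38.p6, written 5′ to 3′ on the strand of the gene.
Afp, chr5:90490464-90490713, plus strand: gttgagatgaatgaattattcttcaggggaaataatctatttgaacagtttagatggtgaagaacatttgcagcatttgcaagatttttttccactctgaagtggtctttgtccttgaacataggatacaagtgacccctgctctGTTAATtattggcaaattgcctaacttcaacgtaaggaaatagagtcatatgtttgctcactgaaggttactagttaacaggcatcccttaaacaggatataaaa
Alb, chr5:90460620-90460869, plus strand: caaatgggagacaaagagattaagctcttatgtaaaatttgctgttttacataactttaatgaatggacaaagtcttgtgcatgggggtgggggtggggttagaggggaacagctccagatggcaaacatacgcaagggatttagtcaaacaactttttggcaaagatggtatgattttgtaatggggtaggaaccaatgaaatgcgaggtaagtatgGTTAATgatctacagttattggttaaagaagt

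The half-site was in both stretches, from -105 to -100 in Afp and from -32 to -27 in Alb, counted from the start. Over all 32851 such windows of the RefSeq table, searched on both strands, 6.43% held it. A match is a description of letters and not of binding.

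The fibrinogen chains are encoded by Fga, Fgb and Fgg, which lie together on chromosome 3, and a clottable fibrinogen molecule needs all of these chains. Fga had a raw intensity of 540 on Splotch null 2 and of 4.8 to 20.1 on the other 5 arrays, where it was not above background. Fgg had a raw intensity of 375 on Splotch null 2 and of 8.2 to 30.7 on the other 5, again not above background there. As lower bounds, Fga was at least 8.12-fold and Fgg at least 5.92-fold brighter on Splotch null 2 than the mean of the other 5. For that mean each dim array was set to its dimmest spot above background, or to the gene's own reading where that was higher.

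Fgb differed from the other chains in that it was above background on all 6 arrays. Log2 intensity of Fgb was 8.02 on wild type 1, 8.64 on wild type 2, 8.21 on wild type 3, 8.34 on Splotch null 1, 10.75 on Splotch null 2 and 7.86 on Splotch null 3. It was thus 4.33-fold brighter on Splotch null 2 than on the next array, and the other 5 arrays lay within 1.71-fold. The probes differ, so the level of Fgb was not set against that of Fga or Fgg. The stretches before the 3 chains are shown because the genes are neighbours that were all bright on Splotch null 2, while of the 3 Fgb alone was above background elsewhere.
Fga, chr3:83025903-83026152, plus strand: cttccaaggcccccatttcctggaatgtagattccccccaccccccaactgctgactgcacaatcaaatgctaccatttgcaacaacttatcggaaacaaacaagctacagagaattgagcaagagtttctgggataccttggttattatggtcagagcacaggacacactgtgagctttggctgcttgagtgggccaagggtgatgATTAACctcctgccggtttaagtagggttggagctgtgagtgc
Fgb, chr3:83049864-83050113, minus strand: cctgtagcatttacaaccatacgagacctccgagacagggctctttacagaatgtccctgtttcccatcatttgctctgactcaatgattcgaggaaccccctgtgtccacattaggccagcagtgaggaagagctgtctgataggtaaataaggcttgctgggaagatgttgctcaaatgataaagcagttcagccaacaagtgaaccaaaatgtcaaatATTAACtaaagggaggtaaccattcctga
Fgg, chr3:83007474-83007723, plus strand: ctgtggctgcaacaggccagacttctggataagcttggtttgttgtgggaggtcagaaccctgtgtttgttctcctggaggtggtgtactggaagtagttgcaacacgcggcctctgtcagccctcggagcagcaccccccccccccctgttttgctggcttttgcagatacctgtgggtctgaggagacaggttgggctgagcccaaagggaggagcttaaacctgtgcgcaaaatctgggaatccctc

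The HNF1 half-site was in Fga, from -43 to -38, and in Fgb, from -29 to -24, both as ATTAAC, and its letters were not in the Fgg window. RefSeq windows were at hand for 8 of the 10 genes, 9 windows in all because Rbp4 has 2 starts, and 4 of the 9 held the half-site. The longer letters CAAAGTCCA, a half-site of the nuclear receptor HNF4, were in 0 of the 9 windows and in 0.384% of all windows. The GATA letters AGATAA were in 1 of the 9, that of Spp2, and in 9.99% of all windows.

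Ttr encodes transthyretin, the carrier of thyroid hormone, which also binds retinol-binding protein in plasma. Its log2 intensity was 8.14 on wild type 1, 9.92 on wild type 2, 10.48 on wild type 3, 9.16 on Splotch null 1, 13.51 on Splotch null 2 and 7.13 on Splotch null 3. Besides the high value on Splotch null 2, which was 8.18-fold above the next array, the other 5 arrays spanned 10.2-fold. Both genotypes were spread over this range and overlapped.

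Rbp4 encodes the plasma carrier of retinol, the partner of transthyretin. Log2 intensity of Rbp4 was 10.09 on wild type 1, 11.05 on wild type 2, 11.67 on wild type 3, 10.35 on Splotch null 1, 13.26 on Splotch null 2 and 8.73 on Splotch null 3. Splotch null 2 was 3.02-fold above the next array, the lowest such fold among the 9 genes above background, and the other 5 arrays spanned 7.68-fold.

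S100g encodes calbindin-D9k, a small intracellular calcium-binding protein of absorptive epithelia and not itself a serum protein. Log2 intensity of S100g was 7.31 on wild type 1, 8.99 on wild type 2, 9.40 on wild type 3, 8.11 on Splotch null 1, 12.99 on Splotch null 2 and 6.79 on Splotch null 3. Splotch null 2 was 12.0-fold above the next array and the other 5 spanned 6.12-fold. In raw intensity the spot read 8108 on Splotch null 2 and between 74.1 and 547 elsewhere. The stretch before its start, on the X chromosome, is shown as that of a member with a steep pattern over the arrays and without the HNF1 half-site.
S100g, chrX:162964600-162964849, minus strand: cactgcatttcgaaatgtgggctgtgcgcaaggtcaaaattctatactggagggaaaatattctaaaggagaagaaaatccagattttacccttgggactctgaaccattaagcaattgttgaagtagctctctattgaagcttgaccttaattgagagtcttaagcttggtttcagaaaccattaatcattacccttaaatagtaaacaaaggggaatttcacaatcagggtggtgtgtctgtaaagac

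Spp2 encodes secreted phosphoprotein 24, a cystatin-like protein made mainly by liver. Its log2 intensity was 6.94 on wild type 1, 7.94 on wild type 2, 7.81 on wild type 3, 6.82 on Splotch null 1, 11.41 on Splotch null 2 and 6.32 on Splotch null 3. The gap to the next array was 11.1-fold on Splotch null 2 and the other 5 spanned 3.08-fold.

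Trf encodes transferrin, the iron carrier of plasma. Log2 intensity of Trf was 7.58 on wild type 1, 7.36 on wild type 2, 7.54 on wild type 3, 7.69 on Splotch null 1, 10.30 on Splotch null 2 and 7.78 on Splotch null 3. For Trf the gap between Splotch null 2 and the next array was 5.71-fold, and the other 5 arrays lay within 1.35-fold. On this log2 scale Trf was the 1 gene among the 7 above background everywhere for which Splotch null 3 was not the lowest of those 5.

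**Figure D1:**
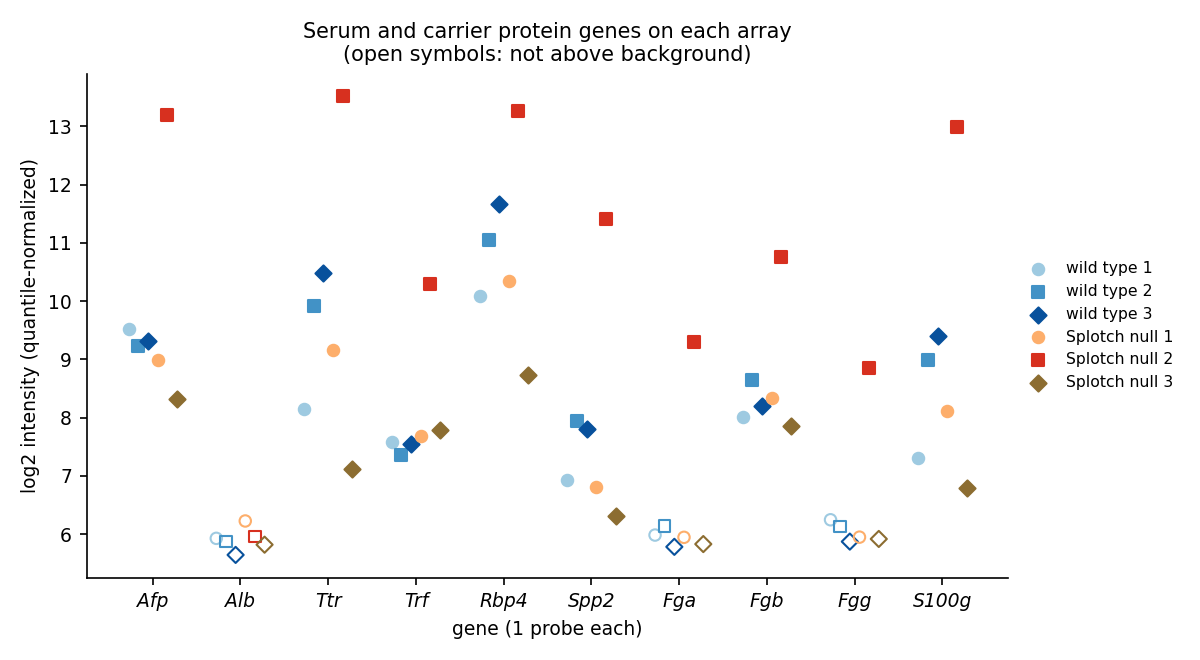
Log2 intensity (quantile-normalized) of the 10 genes, 1 probe each, on each of the 6 arrays; each point is 1 array and open symbols were not above background. Splotch null 2 is the top point for 9 genes, while Alb is below background throughout and Ttr, Rbp4 and S100g also spread widely over the other arrays.

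Set against all probes, the brightness of these genes on Splotch null 2 was rare. Splotch null 2 was at least 2-fold above every other array for 9 of the 10 genes and for 0.315% of the 25749 probes above background on 1 array or more. These and later counts use the readings as measured, also where another array was not above background. It was at least 4-fold above for 8 of the 10, Rbp4 being below this fold and Alb below background, and for 0.101% of the probes. It was merely the brightest array for 20.8% of the probes. These shares describe the array on which the set was drawn up and are no test of it. Of the 81 probes past 2-fold, 73 had a gene name, and 5 of the 10 highest by this gap were those of Afp, S100g, Spp2, Fga and Ttr. For those 9 genes no other array could then be the brightest, and Alb was not 2-fold above the rest on any array.

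**Figure D2:**
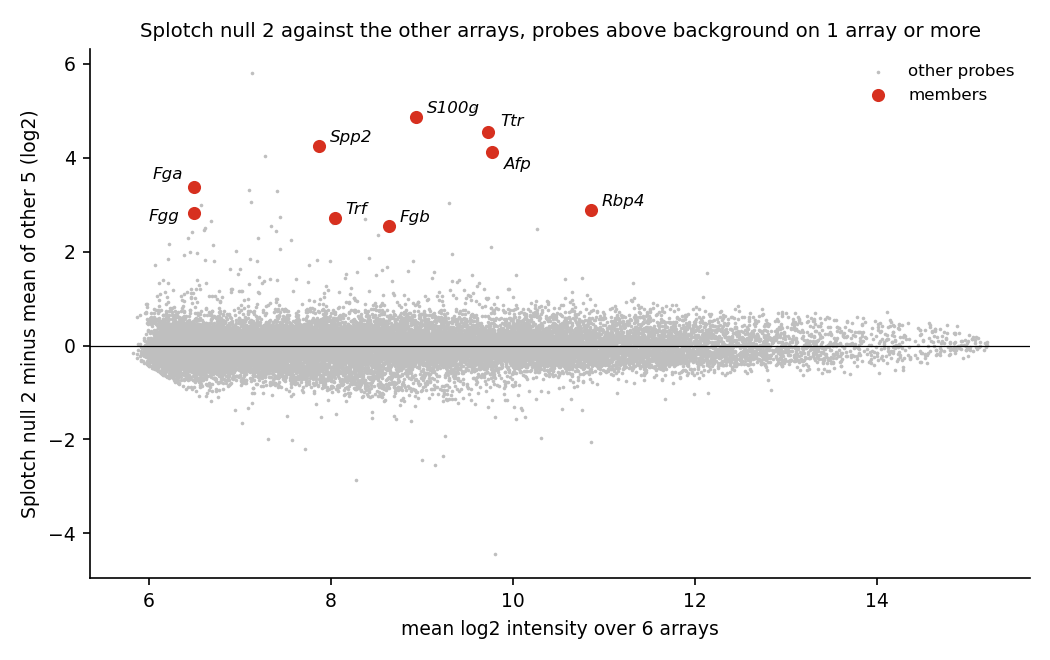
Difference of log2 intensity between Splotch null 2 and the mean of the other 5 arrays (vertical) against the mean log2 intensity over 6 arrays (horizontal), for 25749 probes above background on 1 array or more and usable on all; grey points are other probes and red points the members. The 9 labelled members lie between 2.54 and 4.87, outside the dense band of probes.

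Among the other 5 arrays the genes did not vary alike. Ttr, Rbp4, S100g and Spp2 were highest on wild type 2 and wild type 3 and lowest on Splotch null 3, a pattern that 3.83% of 23319 probes also had. Ttr, Rbp4 and S100g followed the same full order, wild type 3, wild type 2, Splotch null 1, wild type 1 and Splotch null 3, as did 1.68% of the probes. In raw intensity Rbp4 did not keep that order, with 1195 on wild type 1 and 1141 on Splotch null 1. Afp was instead highest on wild type 1, Fgb on wild type 2 followed by Splotch null 1, and Trf on Splotch null 3. After normalization Splotch null 3 was the lowest of the 5 for 6 of the 7 genes above background everywhere, and for 21.9% of the probes. In raw intensity Fgb was instead lowest on wild type 3, at 206, with 231 on Splotch null 3. Its raw 253 on wild type 1 also lay above the 238 on Splotch null 1.

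On the normalized log2 scale the size of this variation also set Ttr, Rbp4 and S100g apart as values. They were the 3 members that spanned at least 4-fold over the other 5 arrays on that scale, as did 0.279% of the probes. Only 6 probes, or 0.0257%, had both that span and the pattern of high wild type 2 and wild type 3 with low Splotch null 3. Beside these 3 members they were Apoa1, an apolipoprotein, Tff3, a trefoil peptide of mucous epithelium, and Vamp5, a vesicle-associated membrane protein, named after their values were seen. Spp2 was left out by the log2 scale, where the intensity added before log2 makes folds of dim genes smaller. In raw intensity it also spanned over 4-fold, with 197 on wild type 2 and 38.0 on Splotch null 3. The authors' normalized intensity of Spp2 on these arrays was 1.98 and 0.31, again over 4-fold. Probes with such a span were not counted on those scales. For the 7 genes the median span was 1.62 on the log2 scale, against 0.46 over all probes tested. The array medians ran partly against this order, with raw medians of 84.3 on wild type 3, 99.7 on wild type 2, 86.4 on Splotch null 1, 116.3 on wild type 1 and 121.1 on Splotch null 3. Their part in the pattern was not tested. In the raw intensities as deposited, Ttr, Rbp4, S100g and Spp2 were again the 4 genes highest on wild type 2 and wild type 3 and lowest on Splotch null 3 among these arrays. In raw intensity Ttr read 1254 on wild type 3, 889 on wild type 2, 464 on Splotch null 1, 283 on wild type 1 and 111 on Splotch null 3.

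**Figure D3:**
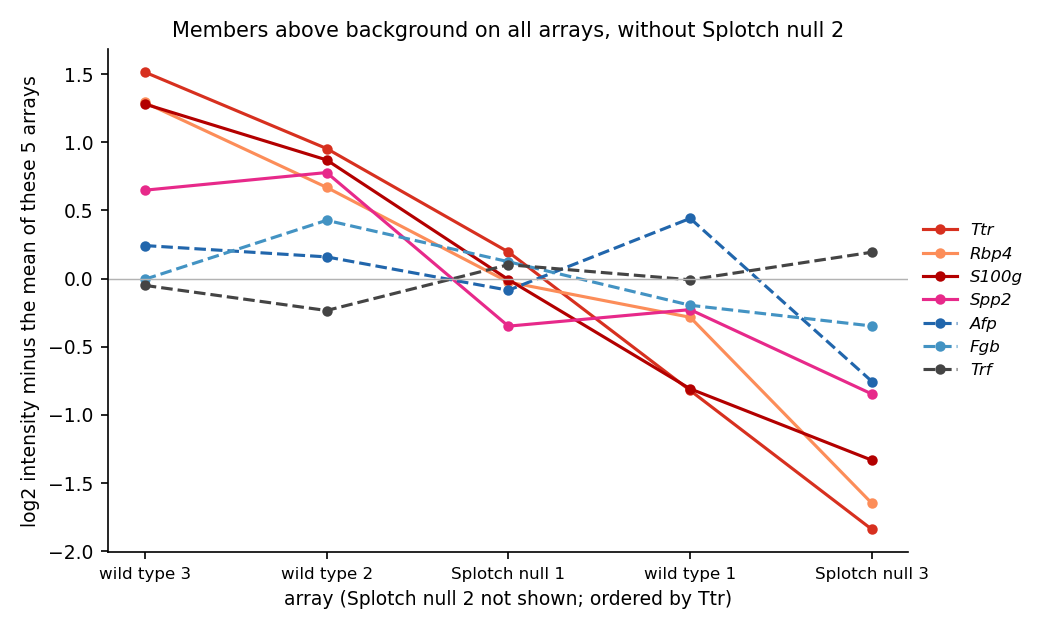
Log2 intensity minus the gene's mean over the 5 arrays other than Splotch null 2 (vertical), by array in the order of Ttr (horizontal), for the 7 genes above background on all arrays; each line is 1 gene. Ttr, Rbp4, S100g and Spp2 (solid) fall from wild type 2 and wild type 3 to Splotch null 3, whereas Trf stays within 0.43 and Afp peaks on wild type 1.

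The study compared Splotch null with wild type. After normalization the genotypes overlapped for 6 of the 7 tested members, Trf being the exception, and the members' mean differences followed Splotch null 2. In the limma fit of 24434 probes, 0 (0%) passed a threshold of 0.05 on the Benjamini-Hochberg adjusted p, and 328 (1.34%) had an unadjusted p below it. Of the 7 members tested, 0 passed either threshold. Because the set was chosen by values of these arrays, this describes the members and is no test of them. Fga, Fgg and Alb were above background on too few arrays to be tested.

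The spread within Splotch null was large because of Splotch null 2. For Afp the wild type mean was 9.36 ± 0.15 and the Splotch null mean 10.17 ± 2.64 on the log2 scale (SD, n = 3 each), which differ by 0.81 (SE 1.14). For Ttr these means were 9.52 ± 1.22 and 9.93 ± 3.26 (SD, n = 3 each), which differ by 0.42 (SE 1.5). For S100g they were 8.57 ± 1.11 and 9.30 ± 3.27 (SD, n = 3 each), 0.73 apart (SE 1.48). These differences were smaller than their standard errors. The other 4 differences, Splotch null minus wild type, were 1.10 (SE 0.65) for Trf, 0.70 (SE 0.69) for Fgb, 0.62 (SE 1.23) for Spp2 and -0.16 (SE 1.05) for Rbp4.

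Without Splotch null 2 the direction turned for 5 of these genes. The difference became -0.70 for Afp, -1.37 for Ttr, -1.12 for S100g, -1.0 for Spp2 and -0.19 for Fgb, and it stayed negative for Rbp4 at -1.40. Trf alone remained brighter in Splotch null, by 0.25. After normalization its genotypes did not overlap with or without that array. In raw intensity they did, with 172 on wild type 1 and 136 on Splotch null 1. Normalized values without overlap over all 6 arrays were found for 5.24% of the probes. The share without Splotch null 2, where fewer arrays make separation easier, was not counted. The median difference of the 7 genes was 0.70 with all arrays and -1.0 without Splotch null 2, against 0.0043 and -0.0021 over all probes tested. Leaving out wild type 1 also turned Ttr, to -0.27, and leaving out Splotch null 1, wild type 3 or Splotch null 3 turned Rbp4, to 0.059, 0.21 and 0.87.

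Some other genes listed for the yolk sac endoderm were also bright on the same array. Of 12 genes listed for extraembryonic visceral endoderm and its uptake receptors, 11 were above background on some array. Of these 11, Splotch null 2 was the brightest array for 7 and at least 2-fold above every other array for 5. Over the 25749 probes these shares were 20.8% and 0.315%. Amn and Cubn encode amnionless and cubilin, which together form the receptor that takes up protein at the apical face of visceral endoderm. Both were above background on Splotch null 2 only, at least 8.55-fold and 6.87-fold brighter there than the mean of the other 5. Soat2, a cholesterol esterifying enzyme, was also above background on that array only and at least 5.11-fold brighter by the same measure. The homeobox gene Rhox5 was 6.14-fold and the glucose transporter gene Slc2a2 4.76-fold above the mean of the other 5 arrays. Not all of the list behaved so. Lrp2, the megalin receptor, lay between 6.80 and 7.16 on all arrays, and Dab2, an endocytic adaptor, was 2.05-fold above the mean of the other 5. Cited1, the brightest of the list, read 12.11 on Splotch null 2 and 10.44 to 11.77 elsewhere. Slc39a8 read 8.47 on Splotch null 2 and 7.86 to 9.15 elsewhere. Ihh and Pga5 were not brighter on Splotch null 2, at -0.18 and -0.06 from the mean of the other 5 on the log2 scale.

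The set is named for the yolk sac, and the listed visceral endoderm genes were divided on the arrays other than Splotch null 2. Of the 12, 6 were above background on all 6 arrays, namely Lrp2, Dab2, Rhox5, Cited1, Slc39a8 and Slc2a2. Amn, Cubn and Soat2 were the 3 above background on Splotch null 2 only, and 1 was below it on all arrays. The mean log2 intensity of the listed visceral endoderm genes was 8.89 on Splotch null 2, against 7.31 to 7.60 on the rest.

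Apolipoproteins carry lipid in plasma and are made by the same endoderm. All 10 listed genes of lipoprotein assembly were brightest on Splotch null 2, and 9 were at least 2-fold above every other array, the exception being Mttp. The corresponding shares of the 25749 probes were 20.8% and 0.315%. Apoa1 read 13.80 there and 6.88 to 9.79 on the other 5, and Apoe read 11.82 there and 8.08 to 9.12 elsewhere. Mttp, the lipid transfer protein that loads apolipoprotein B, read 8.04 and 7.12 to 7.55.

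Serum proteins typical of liver were mostly dim. Of 20 such genes with a named probe, 8 were below background on all arrays and 4 were above it on Splotch null 2 only. Of those 4, F2 read 7.03 there. Itih1 (6.41), Itih2 (6.47) and Gc (6.56) lay close to 6.37, the dimmest spot above background on that array. The share of all probes above background on that array only was not counted. Of the 20 genes, 11 were above background on some array and usable on all 6. Splotch null 2 was the brightest array for 7 of these 11, against 20.8% of the 25749 probes. Of the 11, 2 were at least 2-fold brighter on Splotch null 2 than elsewhere. These were Serpinc1, the antithrombin gene, 3.09-fold above the mean of the other 5, and F10, the coagulation factor X gene, 2.20-fold. Over the 25749 probes the share at least 2-fold above every other array was 0.315%. The fetuin gene Ahsg read 7.63 on Splotch null 2 and 7.34 to 7.77 elsewhere, and Ambp 8.15 and 6.51 to 7.73. Alb and those 8 genes were thus below background on the array where Afp was brightest.

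For transcription factors of endoderm and liver the differences were mostly small. Splotch null 2 was the brightest array for 8 of the 15 above background on some array, against 20.8% of the 25749 probes. Of the 15, 1 read at least 2-fold above every other array on Splotch null 2, against 0.315% of the probes. That gene was Hnf4a, a nuclear receptor of visceral endoderm and liver. Hnf4a was not above background on the other 5 arrays, so this fold rests on readings below background. Against their mean with the floor it was at least 1.96-fold brighter, which does not reach 2-fold. Foxa1 read 9.47 there and 8.93 to 9.38 elsewhere, Gata6 9.37 and 8.69 to 9.51, and Sox17 9.43 and 8.46 to 9.04. The median difference of the 15 between Splotch null 2 and the other 5 was 0.31 on the log2 scale, against 0.012 over all probes tested.

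Of 9 genes of gut epithelium, 8 were above background on every array, with Epcam at 12.33 on Splotch null 2 and 11.82 to 12.36 on the other 5, and Krt8 at 12.30 and 11.33 to 11.96. Splotch null 2 was the brightest array for 7 of the 8 genes usable on all arrays, against 20.8% of the 25749 probes. The median difference of these 8 from the other 5 arrays was 0.76 on the log2 scale. Cldn7 read 11.42 on Splotch null 2 and 9.94 to 10.77 elsewhere, and Krt19 11.22 and 9.93 to 10.76. Of the 8, Spink1, a trypsin inhibitor gene of gut and pancreas, was the 1 at least 2-fold above the rest there. The share past 2-fold was 0.315% of the 25749 probes. Spink1 also varied over the other 5 arrays, from 8.47 on wild type 1 to 11.18 on wild type 3. The list had a mean log2 intensity of 10.76 on Splotch null 2 and 9.64 to 10.39 on the other 5. Its part in the levels of the serum protein genes was not tested.

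Markers of other extraembryonic tissues, blood and vessels were also read. None of the usable genes of parietal endoderm (0 of 10), trophoblast and placenta (0 of 8), primitive blood (0 of 7) or endothelium (0 of 10) was 2-fold above every other array on Splotch null 2. Among the 25749 probes 0.315% were. The list medians of the difference from the other 5 arrays were 0.072, 0.045, 0.31 and 0.14 in that order. Sparc, a matrix protein abundant in parietal endoderm, read 12.71 on Splotch null 2 and 12.06 to 12.42 elsewhere. The trophoblast gene Plac1 read 10.65 and 8.63 to 9.91. The embryonic globin gene Hba-x read 14.94 on Splotch null 2 and 14.12 to 14.98 elsewhere, and Alas2, of haem synthesis in red cells, 10.37 and 9.22 to 11.36. The endothelial receptor gene Kdr read 10.57 and 9.84 to 10.90.

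**Figure D4:**
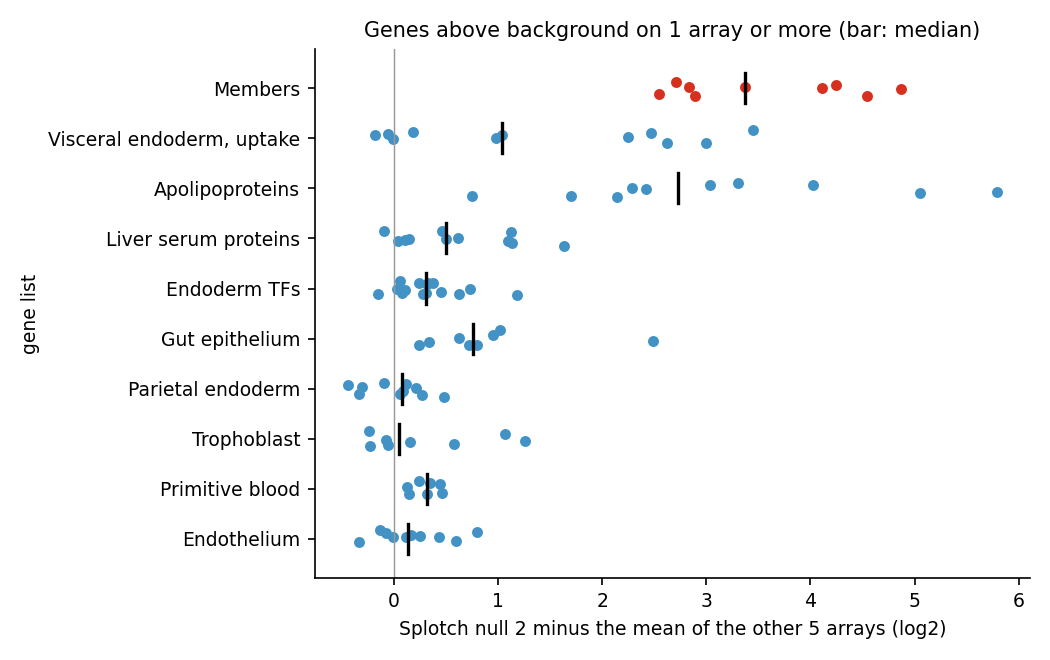
Difference of log2 intensity between Splotch null 2 and the mean of the other 5 arrays (horizontal) for genes of each list (vertical) above background on 1 array or more; each point is 1 gene and the bar is the list's median. The members and the apolipoproteins lie far to the right, the visceral endoderm genes split, and parietal endoderm, trophoblast, blood and endothelium centre near 0.

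The genes whose pattern over the 6 arrays was most like the mean pattern of the members were ranked by Pearson correlation among 1612 genes above background on all arrays and spanning at least 2-fold. Splotch null 2 was the highest array for each of the 10. The ranking itself favours this, because that array lies far above the rest in the mean pattern of the members. The correlations are a description over 6 arrays with no test. Apoe came out on top, with r = 0.997, followed by Gipc2 (0.993), Pla1a (0.990) and F10 (0.990). Rhox5 (0.990), Serpinc1 (0.989), Apoa1 (0.984) and Pdzk1 (0.984) came next, and Morc4 (0.982) and Olfr812 (0.982) closed the list of 10. Gipc2 read 9.97 on Splotch null 2 and 7.55 to 8.42 on the other 5. Pdzk1, a scaffold protein of absorptive epithelia, read 8.95 and 7.48 to 8.03. Apoa1 was the 1 among the 10 that also spanned over 4-fold on the other arrays, with 2.92 on the log2 scale.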

How the data were processed

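Biotin-labelled cRNA was made by a modified Eberwine amplification, per the labels' protocols. The authors deposited, from CodeLink Expression Analysis 5.0.0.31312 per the file headers, a raw intensity and the same intensity over each array's median. Raw intensity fell to -16.6, so a background had been subtracted. The method of that step is not stated in the file headers or labels. The authors' deposited value table matched that normalized intensity times 1 constant per array within 1% for 100% of positive spots. Its linear scale, columns with a median of 1.0363 and lack of gene centring were found this way. The headers give 1 image analysis day and 1 array design for all arrays. They name no extraction or hybridization batch.

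From there, spots with a quality flag of G (above background), S (saturated) or L (not above background) were used, and 277 to 422 others per array left out. No member was saturated. Values below 0 were set to 0, 50 was added, and the log2 values were quantile-normalized. Probes flagged G or S on at least 3 arrays and usable on at least 2 per genotype entered the fit (limma 3.58.1, run under R 4.3.3). The procedure was run on simulated data with changes of known fold, and the share of changes recovered is not reported here. The number of arrays limits the precision. A gene's probe with the highest mean stood for it.

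Probe names are those of the platform table at GEO, of unknown age. They were renewed through gene identifiers to GRCm38.p6 symbols (21487 probes), kept (128) or found by accession (536). The 681 probes with several symbols and 12135 with none stayed unnamed. Listed genes without a named probe, 8 in all, were not analysed here. The members and lists were chosen with earlier results of these data known. The naming rule took all members, up to 4 genes per list with the highest mean, the 10 genes most like the members, and tissue genes. Amn, Cubn, Soat2, Slc2a2, Lrp2, Ihh, Pga5, F2, Itih1, Itih2, Gc, Hnf4a, Spink1, Tff3 and Vamp5 lay outside it and were named after their values were seen. Promoter windows are RefSeq's. Alternatives were other scalings, the value table, offsets of 10 and 200, filters, saturated spots left out, trended and robust eBayes, gene means and each array left out. Figures used matplotlib 3.10.9.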

Additional observations from a re-analysis of the deposited data

How the results depend on the processing

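The members for which Splotch null 2 was the brightest array, by any margin, numbered 9 under quantile normalization and 9 under each of 5 other treatments, namely raw intensity, scaling by medians, leaving out saturated spots, and both the normalized intensity and the value table of the authors. The 4 members with high wild type 2 and wild type 3 and low Splotch null 3 numbered 4 under the same 5, a check chosen after seeing the data. The median difference of the 7 tested members between Splotch null 2 and the other 5 arrays was 4.11 on the log2 scale. It ranged from 3.93 to 4.19 with each other array left out, and it fell to 3.26 with an offset of 200, which by construction compresses dim signals. The count of probes past an adjusted p of 0.05 was 0 under all 16 alternatives run. The count at an unadjusted p under 0.05 was 328, and it lay between 178 (without wild type 2) and 1069 (without Splotch null 3). Each member's genotype difference moved by less than the spread between arrays in all 15 alternatives run for it, a spread that Splotch null 2 makes wide. The changes of sign on leaving out an array stand in the text above. No paired analysis was possible because the labels do not pair the arrays by litter or batch. Signal near background limits Alb, Fga and Fgg, for which 5 or more arrays gave no level. Spp2 was also dim on Splotch null 3, at a log2 intensity of 6.32, where the dimmest spot above background read 6.20.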
